A study of Equus caballus with 2 samples.

Results

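A set of 10 interferon-stimulated effector genes was examined in cultured equine endometrial fibroblasts: ISG15, USP18, IFIH1, IFIT2, IFIT3, MX1, MX2, BST2, SAMHD1 and IFI35. They were chosen by symbol from the 21426 genes listed in both libraries, and all 10 symbols were found, each on 1 row. The choice was made with earlier results of these data known, so the comparisons with all genes below are descriptions and not independent support. The fibroblasts came from the endometrium of 4 mares and were cultured on collagen-coated hydrogels. Serum was replaced by 0.1% bovine serum albumin for the final 24 h in both groups, and the control received nothing else while the other group received 10 ng/ml human recombinant TGF-β1. The cells of the 4 mares were pooled, giving 1 droplet library per group, and cells treated with MFGE8 were not analysed here. The study assigned cells to mares from the reads. Those assignments were not analysed here, so no replicate and no test could be used, the library and the treatment cannot be told apart, and every interval below covers counting error only, at the 95% level. The mares were in the mid-luteal phase with a healthy or mildly altered endometrium, per the study's methods. Their ages are not given in the sources used here.

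Interferons bind receptors on the cell surface and, through JAK kinases and the factors they activate, switch on a large set of genes that limit viral growth. The protein products act at separate steps: some sense foreign RNA, some block entry, replication or release of viruses, and some switch the signal off again. Many cells keep a low level of these transcripts without added interferon, and in the endometrium of several domestic species the set is known to respond to signals of early pregnancy. TGF-β1 is a cytokine that drives fibroblasts towards a contractile, matrix-producing state.

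Transcripts were counted by unique molecular identifiers (UMIs), tags that make amplified copies count once. A cell was kept if it had 20000 or more UMIs, 3500 or more genes and less than 4% mitochondrial UMIs, which left 3865 of 4384 control barcodes and 4513 of 5124 TGF-β1 barcodes. The kept cells held 210497250 and 219731144 UMIs, with a median per cell of 50313 and 43142, and 2 kept barcodes were shared between the libraries. All 7 fibroblast markers were found, with VIM at 4399 and 2240 counts per 1000000 UMIs (CPM) in the control and the TGF-β1 library. With TGF-β1, 4 of them were lower, VIM (log2 ratio -0.97), THY1 (-1.30), PDGFRB (-0.71) and DCN (-0.23), and 3 were higher. Of the immune markers, 2 exceeded a mean of 1 CPM: CD68, a lysosomal protein, at 42.6 and 43.1 CPM, and CD14 at 14.0 and 9.75 CPM (log2 ratio -0.52). CD14 was found in 25.1% and 17.2% of cells after thinning (explained below). The pan-leukocyte gene PTPRC had 1 and 0 UMIs, where a count of 0 allows up to 0.0137 CPM with TGF-β1. KRT8, a keratin, went from 114 to 4.48 CPM, and its part in the results below was measured by leaving out cells that carry it.

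The 10 genes together took 89.3 CPM of the control library and 53.7 CPM of the TGF-β1 library. Of the 10, 8 were lower with TGF-β1, beside 51.8% of all genes with more than 3 UMIs, and 2, SAMHD1 and USP18, were higher. IFIT2 had the largest difference in size, at 8.60-fold lower, followed by BST2 at 4.43-fold. The mean level over both libraries was below 1 CPM for IFIT3 and MX2. Among the 8 genes above that minimum, 4 (IFIT2, BST2, IFI35 and IFIH1) were lower by more than 2-fold, against 3.46% of all 12116 genes above it, and none was higher by more than 2-fold, against 3.45% of all genes. Their median log2 ratio was -1.11, beside -0.011 over all 12116 genes. The counting interval lay below 0 for 6 of the 8 and above 0 for 2, against 42.2% and 39.5% of all 12116 genes, so at this depth most genes had an interval to one side of 0. At a 1.5-fold limit 6 of the 8 were lower, against 9.36% of all 12116 genes. With no minimum, 6 of the 10 were lower by more than 2-fold, against 7.17% of 17486 genes with more than 3 UMIs. The plot of levels and shares shows every gene in both libraries.

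**Figure D1:**
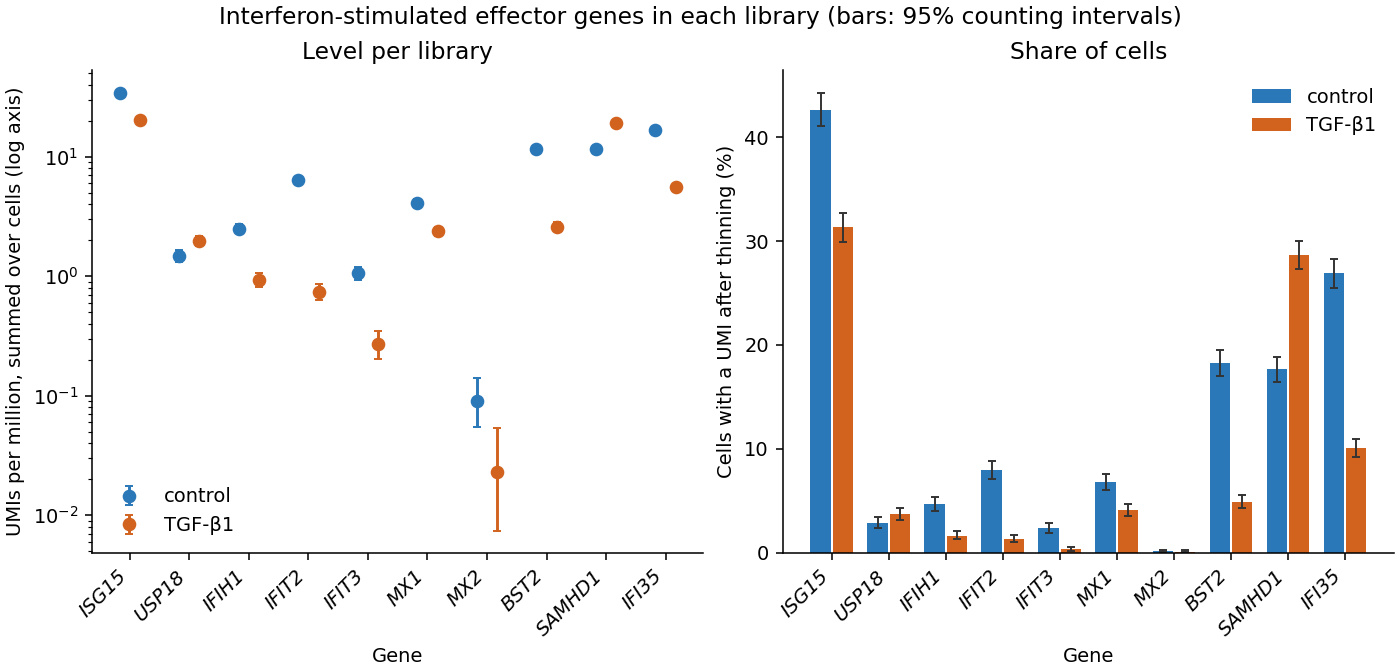
Left, CPM of each of the 10 genes in the control (blue) and TGF-β1 (orange) libraries, summed over kept cells, on a log axis; right, the percent of cells with a UMI of the gene after every cell was thinned to 20000 UMIs; bars are 95% counting intervals (smaller than the points where not visible). The TGF-β1 value lies below the control value for 8 genes, and above it for SAMHD1 (11.5 against 19.1 CPM) and USP18 (1.49 against 1.98 CPM).

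ISG15 is a ubiquitin-like protein that is attached to other proteins, and USP18 is the protease that removes it and that also dampens signalling from the interferon receptor. ISG15 stood at 34.0 CPM in the control and at 20.2 CPM with TGF-β1, so that the log2 ratio was -0.75 (-0.81 to -0.70). Shares of cells were compared after 20000 UMIs had been drawn at random from each cell, which left out no kept cell. In these thinned cells, ISG15 was carried by 42.7% in the control and by 31.3% with TGF-β1 (72.6% and 54.0% before thinning), with 1.63 and 1.38 UMIs per cell that carried one. USP18 went the other way, with 1.49 CPM in the control and 1.98 CPM with TGF-β1 (log2 ratio 0.41, interval 0.20 to 0.63). It was found in 2.87% and 3.70% of thinned cells (7.22% and 8.29% before thinning). The gene that is conjugated and the gene that removes it therefore differed in direction between these libraries.

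The other enzymes of ISG15 conjugation followed ISG15 rather than USP18. UBA7, the activating enzyme, had 1.81 and 0.341 CPM, a log2 ratio of -2.41. UBE2L6, the conjugating enzyme, had 29.1 and 9.11 CPM, a log2 ratio of -1.68. HERC5 and HERC6, ligase-family members, had log2 ratios of -1.10 and -1.81. Of the 6 genes of the pathway, ISG15 and USP18 included, 5 were lower, beside 51.3% of all 12116 genes, and 4 of them by more than 2-fold, beside 3.46%.

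IFIH1 encodes MDA5, a cytosolic sensor of long double-stranded RNA. It had 2.50 CPM in the control and 0.928 CPM with TGF-β1 (log2 ratio -1.43, interval -1.67 to -1.19), and was found in 4.66% and 1.64% of thinned cells (10.5% and 4.08% before thinning). RIGI, the related sensor of short double-stranded RNA, had a smaller difference, from 25.1 to 16.7 CPM (log2 ratio -0.59). Of 8 sensor and adaptor genes above 1 CPM, IFIH1 included, all 8 were lower, beside 51.3% of all genes, and 1, IFIH1, by more than 2-fold, beside 3.46%. The counting interval lay below 0 for 7 of the 8, beside 42.2% of all genes. IKBKE, a kinase of this pathway, had a log2 ratio of -0.47, and MAVS, the adaptor that both sensors signal through, one of -0.22.

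IFIT2 and IFIT3 encode paired tetratricopeptide proteins that bind one another and restrict translation of viral RNA. IFIT2 had 6.34 CPM in the control and 0.737 CPM with TGF-β1 (log2 ratio -3.10, interval -3.35 to -2.87). Its share of thinned cells was 7.94% against 1.33% (16.5% and 3.08% before thinning), and the UMIs per cell that carried one were 1.57 against 1.10. IFIT3 had 222 and 59 UMIs in all, or 1.05 and 0.269 CPM, a log2 ratio of -1.97 (-2.41 to -1.55). It was found in 2.33% and 0.310% of thinned cells (4.71% and 1.13% before thinning). Both genes of the pair were thus lower by more than 2-fold, and every TGF-β1 cell with an IFIT3 UMI after thinning carried exactly 1.

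MX1 and MX2 encode dynamin-like GTPases that trap viral nucleocapsids. MX1 had 4.13 and 2.38 CPM, a log2 ratio of -0.80 (-0.96 to -0.64), and was found in 6.78% and 4.08% of thinned cells (16.5% and 9.90% before thinning). MX2 had 19 control UMIs and 5 TGF-β1 UMIs, and a log2 ratio of -1.99 with a wide interval of -3.76 to -0.52. Of the control UMIs, 47.4% came from 1 cell. Thinned cells with MX2 numbered 5 and 4, so a difference in the share of cells was not detectable at this depth. MX1 and MX2, and IFIT2 and IFIT3, are related genes, and the counting of reads that match both is not given in the sources used here, which leaves the split between them uncertain.

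BST2, or tetherin, holds budding virus particles at the cell surface. It had 11.5 CPM in the control and 2.60 CPM with TGF-β1 (log2 ratio -2.15, interval -2.28 to -2.02), and was found in 18.2% and 4.87% of thinned cells (35.1% and 10.7% before thinning). IFI35, a leucine zipper protein that partners with NMI, had 16.7 and 5.54 CPM, a log2 ratio of -1.59 (-1.68 to -1.49), and was found in 26.9% and 10.0% of thinned cells (55.0% and 22.4% before thinning). NMI itself had 66.7 and 29.2 CPM (log2 ratio -1.19). SAMHD1, which breaks down deoxynucleotides and so starves viral reverse transcription, was the larger of the opposite cases. It had 11.5 CPM in the control and 19.1 CPM with TGF-β1 (log2 ratio 0.73, interval 0.66 to 0.80), and was found in 17.6% and 28.7% of thinned cells (37.9% and 49.8% before thinning). In the control library BST2 and SAMHD1 had nearly the same number of UMIs, 2429 and 2430, and in the TGF-β1 library they had 572 and 4202. No cell type that lacks these genes was identified, so free RNA in the droplets was not measured, and any such RNA is part of the shares of cells.

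The wider interferon set was also mostly lower. Of 44 further interferon-stimulated genes found by symbol, 35 had a mean of at least 1 CPM. Of these 35, 33 were lower, beside 51.3% of all genes, and 11 were lower by more than 2-fold, beside 3.46%. The counting interval lay below 0 for 32, beside 42.2% of all genes. RIGI, NMI and 4 conjugation genes described above (UBA7, UBE2L6, HERC5 and HERC6) are counted again here, all but RIGI among the 11. The median log2 ratio of the 35 was -0.59. Of those whose mean reached 5 CPM, the 3 largest differences were those of UBE2L6, PARP9 (10.9 to 3.44 CPM) and OAS2 (8.25 to 3.28 CPM). EIF2AK2 and SHISA5 were the 2 that were not lower, each at 0.05, and both counting intervals included 0. SAMHD1 and USP18 were thus the only ones of these 35 and the 8 above 1 CPM whose interval lay above 0.

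Among 19 receptor and JAK-STAT genes above 1 CPM, 16 were lower, beside 51.3% of all genes, and 4 of them by more than 2-fold, beside 3.46%. STAT2 had 8.99 and 9.79 CPM (log2 ratio 0.12), and IRF9 had 24.1 and 12.0 CPM (-1.01). In the complex that type I interferon activates, the transcript of IRF9, which contacts DNA, was therefore at a lower level, while that of STAT2 was not. IFNGR2, a chain of the interferon gamma receptor, had 19.8 and 7.29 CPM (log2 ratio -1.44), and IL10RB, shared by interferon lambda and interleukin 10 receptors, had 63.3 and 34.2 CPM (-0.89). The 3 that were not lower were STAT2, IFNLR1, the other chain of the interferon lambda receptor, with 6.01 and 8.92 CPM (log2 ratio 0.57), and SOCS1, an inhibitor of JAK signalling (0.47). All 9 antigen-loading genes were lower, beside 51.3% of all genes, and 5 by more than 2-fold, beside 3.46%, led by PSMB9 (log2 ratio -2.59), TAPBPL (-2.29) and PSMB8 (-2.16).

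Transcripts of the 4 interferon genes found by symbol were scarce in both libraries. IFNG and IFNL1 had no UMI in either, which allows up to 0.0143 CPM in the control and 0.0137 CPM in the TGF-β1 library. IFNE, a type I interferon of the reproductive tract, had 91 control and 229 TGF-β1 UMIs, and IFNK had 12 and 69. Both were higher in the library in which 8 of the 10 effector genes were lower. All 4 were below a mean of 1 CPM. No other interferon gene was found by symbol, and 5196 of the 21426 genes listed have no symbol. Other interferons were therefore not measured here.

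The directions were then compared between kinds of cell. The cells of both libraries were clustered together with the 10 genes and the other interferon lists left out of the clustering, which gave 7 clusters, numbered from 0. Ratios are given where both libraries had more than 3 UMIs in a cluster. ISG15, IFI35, MX1, IFIT2 and BST2 were lower in 7 of 7 clusters, IFIH1 in 6 of 6 and IFIT3 in 5 of 5. USP18 was higher in 6 of 6 and SAMHD1 in 6 of 7. The counting interval excluded 0 in all of these clusters for ISG15, IFI35, IFIT2, IFIT3, BST2 and SAMHD1, but in 5 of 6 for IFIH1, 4 of 7 for MX1 and 2 of 6 for USP18. That makes 50 of 59 ratios, beside 53.4% of the cluster ratios of all genes above 1 CPM. IFIT2 was more than 2-fold lower in every cluster, with log2 ratios from -4.01 to -2.57. MX2 had too few UMIs for a ratio in any cluster. Of 59 ratios in all, 58 had the direction of the whole library, beside 85.4% of the ratios of all genes above 1 CPM. The library is the sum of its clusters, so that agreement is partly built in.

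**Figure D2:**
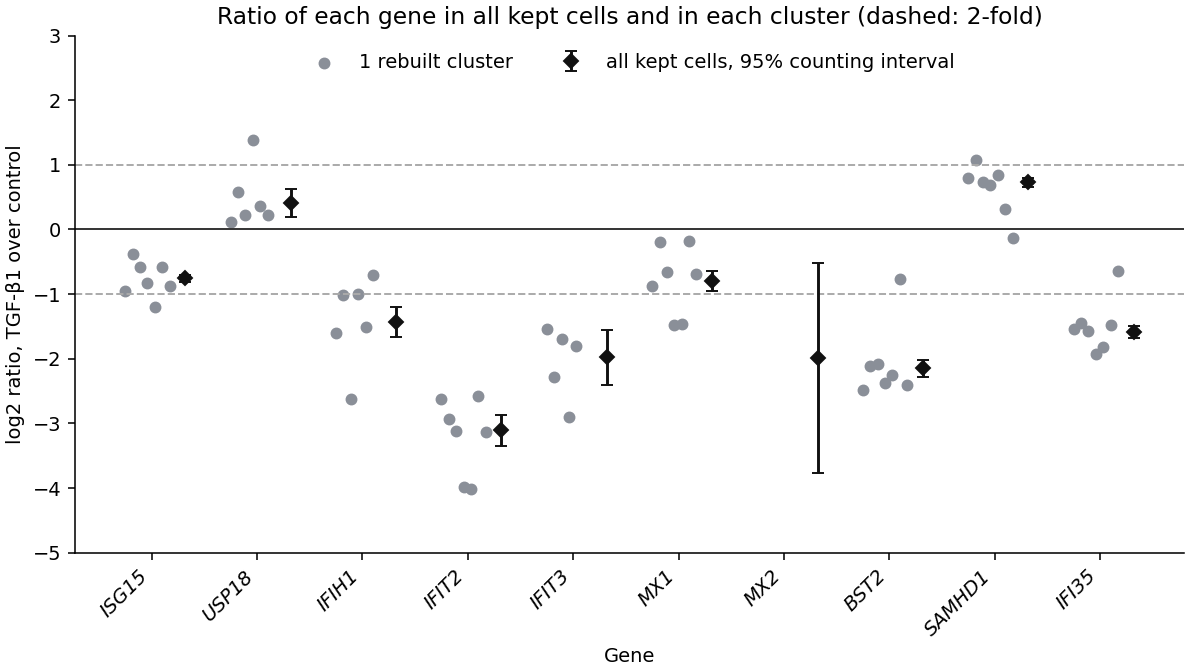
Log2 ratios, TGF-β1 over control (vertical axis), for each gene, with 1 grey point per rebuilt cluster and a black diamond with its 95% counting interval for all kept cells; dashed lines mark 2-fold. The clusters of IFIT2 run from -4.01 to -2.57, those of ISG15 from -1.21 to -0.39, and SAMHD1 has 1 cluster of 7 below 0.

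The summed level of the 10 genes ranged over clusters from 79.2 to 127 CPM in the control and from 48.4 to 60.4 CPM in the TGF-β1 library. In the control, ISG15 made up 7151 of the 18800 UMIs in this sum. The highest control level was in cluster 6, a group of 100 control and 58 TGF-β1 cells led by CA4, GDF15 and KRT1. In the control cells of this cluster ISG15 had 53.8 CPM, BST2 20.6 CPM, IFIT2 12.4 CPM, IFIT3 1.72 CPM and IFIH1 3.63 CPM, each the highest of the 7 clusters. These levels rest on 282, 108, 65, 9 and 19 UMIs, and 1 cell supplied 52 of the 282 of ISG15. Cluster 6 was also the cluster in which SAMHD1 was not higher, with 8.97 and 8.18 CPM, a log2 ratio of -0.13 whose interval of -0.92 to 0.61 included 0. Cluster 5 carried all 9 cycling markers at more than 2-fold the level of the other cells and held 128 and 152 cells. It had the highest SAMHD1 of the 7 clusters in both libraries, at 22.3 and 27.6 CPM, and the lowest ISG15 in both, at 23.9 and 16.0 CPM. BST2 differed least in this cycling-like cluster, with a log2 ratio of -0.77, beside -2.48 to -2.07 in the other clusters. All 9 cycling markers were lower with TGF-β1, beside 51.3% of all genes above 1 CPM. Their median log2 ratio was -0.67, with CENPF at -0.75, TOP2A at -0.67 and CCNB1 at -0.60. Without cluster 5 the median of the 8 effector genes was -1.13. Without cells that carried a KRT8 UMI after thinning it was -1.10.

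Whether the same cells carried several of the genes was examined in the thinned cells. At least 1 of the 10 genes was present in 75.3% of the control cells and 62.8% of those with TGF-β1. At least 3 were found in 508 control cells, or 13.1% (12.1 to 14.2), and in 134 TGF-β1 cells, or 2.97% (2.49 to 3.51). Before thinning these shares were 48.8% and 19.2%. Had each gene been found independently at its own share of cells, 11.3% and 3.16% would carry at least 3. For at least 4 genes, control cells numbered 128 where independence gives 77.1, and TGF-β1 cells numbered 11 where it gives 11.9. For at least 5 the numbers were 24 against 8.12 in the control, and 2 against 0.544 in the TGF-β1 library. Control cells with 3 or more of the genes were thus more frequent than independence gives, and in the TGF-β1 library the observed and independent numbers lay close up to 4 genes. Other sets of genes were not counted in this way, so whether the control excess is particular to these 10 was not tested.

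**Figure D3:**
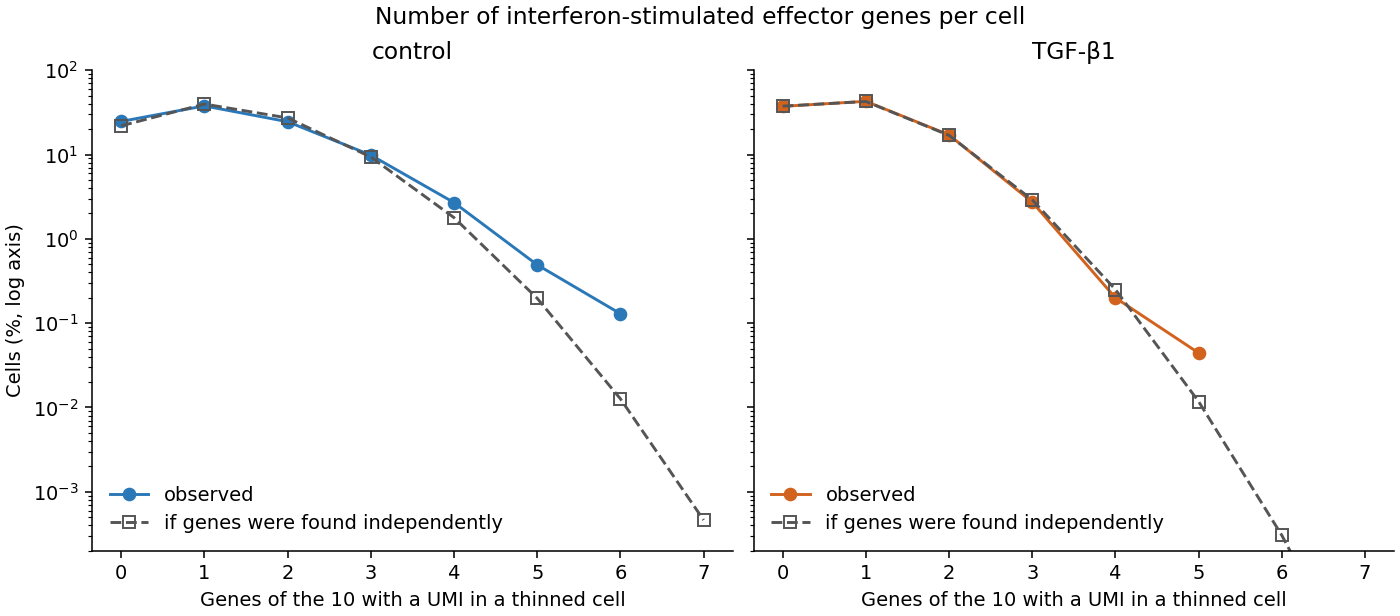
Percent of thinned cells (log axis) by how many of the 10 genes had a UMI, observed and calculated for genes found independently, each at its own share; counts of 0 cells are not drawn. In control cells the observed points lie above the independent ones from 3 genes on (9.83% against 9.34% at exactly 3, and 2.69% against 1.78% at exactly 4), while the TGF-β1 points follow them up to 4 genes (0.199% against 0.251% at exactly 4).

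Pairs of genes were compared in the same way. For each pair, the number of thinned cells with both genes was divided by the number that independence gives, over pairs with at least 5 cells expected. In the control, 28 of 34 pairs had a ratio above 1, with a median of 1.13, and the counting interval lay above 1 for 9 pairs. Over all pairs of genes above 1 CPM that were found in no larger a share of control cells than ISG15, 57.3% had a ratio above 1, 2.76% had an interval above 1, and the median was 1.02. The highest were MX1 with USP18 (15 cells where 7.52 were expected), IFIT2 with IFIT3 (14 where 7.15 were expected) and MX1 with IFIT2 (36 where 20.8 were expected). IFI35 with BST2, a more frequent pair, was found in 241 cells where 190 were expected. With TGF-β1, 12 of 21 pairs were above 1, the median was 1.01, and no interval lay above 1, where the same shares over all pairs were 55.9% and 2.62%. The interval lay below 1 for ISG15 with SAMHD1 (364 cells where 405 were expected). Over the 21 pairs counted in both libraries, the medians were 1.10 in the control and 1.01 in the TGF-β1 library. With TGF-β1, 8 of the 10 genes were carried by a smaller share of cells, fewer pairs reached 5 expected cells, and the difference between the medians was not tested.

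**Figure D4:**
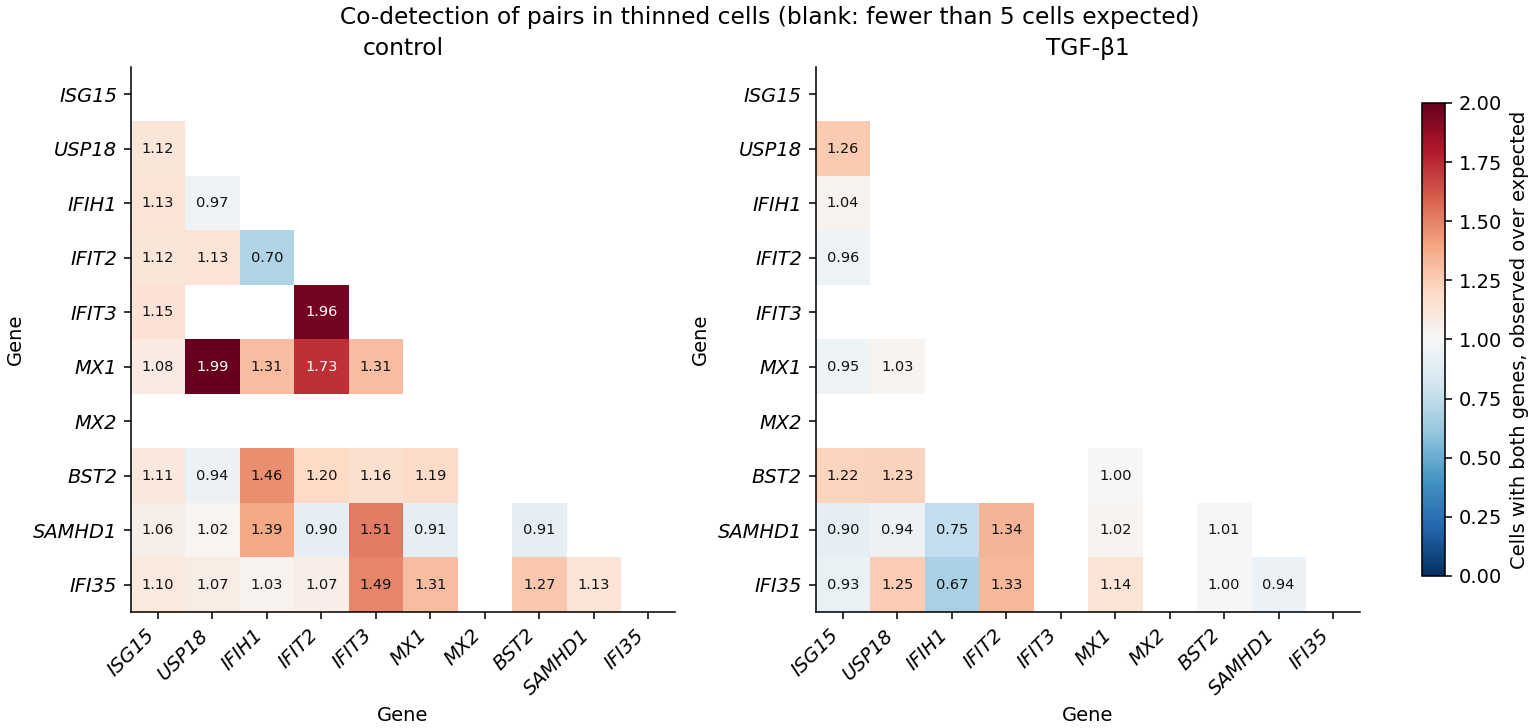
For each pair of genes (rows and columns), the number of thinned cells with both divided by the number expected if they were independent, in the control (left) and TGF-β1 (right) libraries; white cells had fewer than 5 expected and red marks more cells than expected. In the control the ratio reaches 1.99 for MX1 with USP18 and 1.96 for IFIT2 with IFIT3, and in the TGF-β1 library the highest is 1.34.

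A small number of cells carried far more UMIs of the 10 genes than the rest, mainly of ISG15. The median cell had 4 UMIs of the 10 genes in the control and 2 in the TGF-β1 library before thinning. The highest control cell had 218, of which 179 were ISG15, 11 were IFI35, 9 were MX2 and 8 were USP18, among 58282 UMIs in that cell. The next 2 control cells had 122 and 99. The highest TGF-β1 cells had 49, 48 and 38. Cells with at least 20 such UMIs numbered 43 in the control and 10 in the TGF-β1 library, and cells with at least 40 numbered 10 and 2. ISG15 supplied most of these UMIs in each of the 10 highest control cells, so they were not high in every gene of the set. The TGF-β1 cell ranked 7 had 25, of which 22 were SAMHD1 and none ISG15. The 10 highest cells of each library lay in several clusters, and none had a PTPRC UMI. The highest control cell also carried 21 UMIs of DDX60, 11 of OAS1 and 8 of RIGI, and it supplied the 9 of 19 control UMIs of MX2. Without the 10 highest cells of each library the log2 ratio of ISG15 was -0.69 and that of MX2 was -1.28, and the share of cells with at least 3 of the genes was 13.0% and 2.89%.

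The genes whose level over single cells was most like the sum of the 10 were ranked in each library. Over 3865 control cells and 10781 genes, the highest Pearson correlations were those of IFI44 (0.32), DDX60 (0.28), SAMD9L (0.21), IFI27 (0.20) and IFI44L (0.18), followed by OAS2, IRF7, IRF9, IQGAP2 and B2M (0.14). Of these 10, 5 were in the list of 44 further interferon-stimulated genes. In 4513 TGF-β1 cells all were at most 0.10, led by DDX60, NDUFA4L2, IFI27, IRF9 and UBE2L6, with C13H16orf96, TFPI, STRA6, OAS1 and SAMD9 completing the 10. These orders rested on the few highest cells: without the 10 highest cells of each library only 2 of the control 10, IFI27 and B2M, and 3 of the TGF-β1 10 remained among the 10 highest, and IFI44 was no longer among them. All cells of a library share its preparation, and correlations this weak in sparse counts are given as a description only.

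Within each library, cells were finally placed in 3 equal parts by their summed UMIs of 12 TGF-β response genes, among them TGFBI, PMEPA1 and FN1. Genes at a high level weigh most in this sum. Of its 15340 CPM in the control, TAGLN had 4603, ACTA2 3608 and TIMP1 3196, against 401 for TGFBI and 29.0 for PMEPA1. All 12 were higher with TGF-β1, beside 5897 of all 12116 genes, and 8 by more than 2-fold, beside 3.45%. Their median log2 ratio was 1.27, and the list was chosen with earlier results of these data known. In the control, the part with the lowest response had a median of 154 response UMIs of 20000, and the part with the highest had 431. The 10 effector genes together had 110 CPM in the lowest part, 86.8 CPM in the middle and 74.8 CPM in the highest. At least 3 of the genes were found in 19.1%, 12.7% and 7.61% of these cells, a 2.51-fold difference (1.98 to 3.20) between the lowest and highest parts.

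Of the 8 effector genes above 1 CPM, 6 were found in fewer control cells from the lowest to the middle to the highest part, as were 41.9% of all 12116 genes. The 6 were ISG15, IFI35, MX1, IFIT2, IFIH1 and BST2, and IFIT3, below 1 CPM, had the same order. BST2 was found in 25.5% of the lowest and 12.2% of the highest part. IFIT3 was found in 4.19%, 2.17% and 0.621%, and IFIH1 in 6.36%, 5.28% and 2.33%. ISG15 went from 47.4% to 43.2% and 37.3%, and MX1 from 8.15% to 6.13% and 6.06%, of which the last 2 differed little. SAMHD1 (17.3%, 19.1% and 16.5%) and USP18 (2.87%, 2.95% and 2.80%), the 2 genes that were higher with TGF-β1, had no such order. In the TGF-β1 library the response was stronger in every part, with medians from 470 to 744 UMIs, and the effector genes had 55.1, 53.6 and 54.1 CPM. At least 3 of the genes were found in 2.99%, 2.53% and 3.39% of TGF-β1 cells, a fold of 0.882 (0.577 to 1.34) between the lowest and highest parts. There 2 of the 8, IFI35 (11.2%, 9.84% and 9.11%) and BST2 (5.51%, 4.72% and 4.39%), had the falling order, against 37.7% of all genes, as did IFIT3 (0.465%, 0.266% and 0.199%). The rising order was that of 3 of the 8, MX1 (3.19%, 3.92% and 5.12%), IFIH1 (1.13%, 1.53% and 2.26%) and USP18 (3.26%, 3.66% and 4.19%), against 14.5% of all genes. With the parts taken inside each cluster, the control fold was 2.53 and the TGF-β1 fold 0.898. Control cells of the lowest part had a median depth of 45025 UMIs before thinning and those of the highest part 54378, and the part of depth, or of mares that differ in both gene sets, was not tested.

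**Figure D5:**
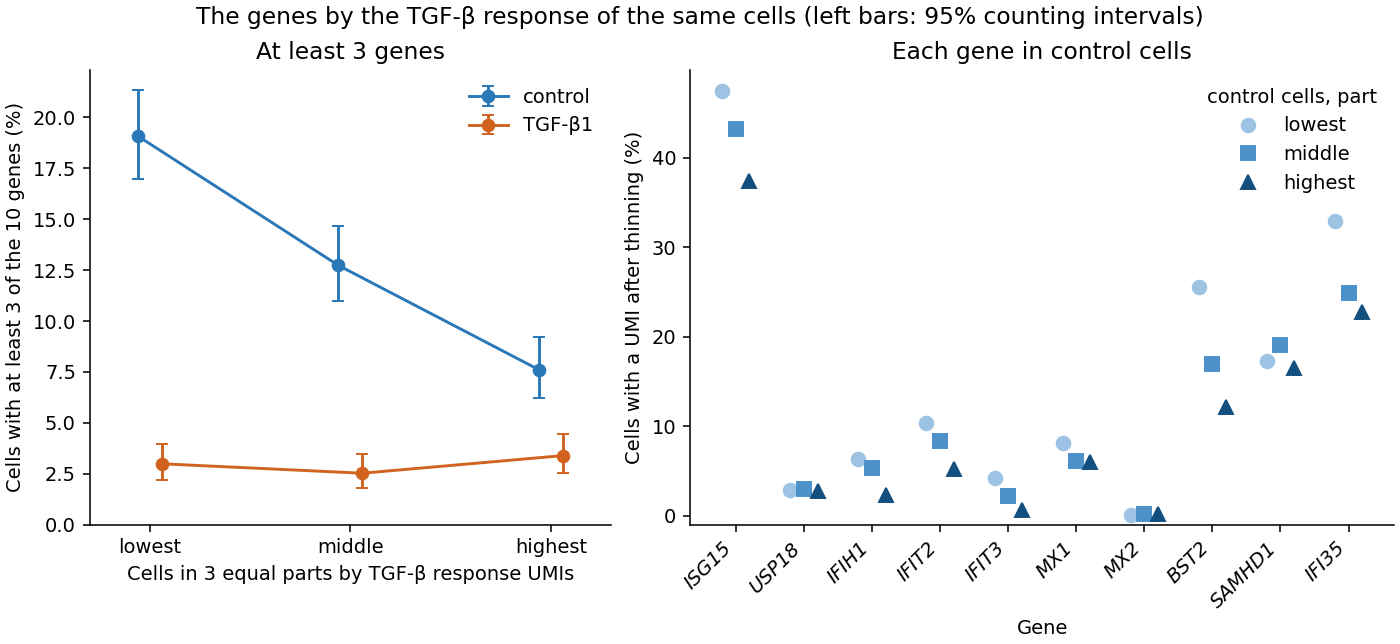
Left, percent of thinned cells with at least 3 of the 10 genes in 3 equal parts of each library by their UMIs of 12 TGF-β response genes, with 95% counting intervals; right, the percent of control cells with each gene in the same parts. In the control the share goes from 19.1% to 12.7% and 7.61%, while in the TGF-β1 library it stays between 2.53% and 3.39%; BST2 goes from 25.5% to 12.2% of control cells and SAMHD1 has no order.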

How the data were processed

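The authors deposited UMI counts per gene and cell barcode for 1 control and 1 TGF-β1 library, aligned to EquCab3.0 with its Ensembl annotation by Cell Ranger, whose version is 7.1.0 in the methods and processing notes and 8.0.1 in the file headers. The values were whole numbers, and the study's cell filters had not been applied. Barcodes were filtered at 20000 UMIs, 3500 genes and 4% mitochondrial UMIs. Doublets were not called, and the study's calls of doublets and mares, which need the reads, were not repeated. UMIs were summed per library and scaled to CPM in Python 3.11.15 (pandas 2.3.3, scipy 1.17.1, numpy 2.4.6). Log2 ratios have no pseudocount, and intervals are exact (binomial for shares and ratios, Poisson for CPM and pairs). Cells were thinned to 20000 UMIs without replacement. Clusters were rebuilt in Seurat 5.3.0 (R 4.3.3) by canonical correlation integration at resolution 0.5, with 30 dimensions and 2000 variable genes, leaving out the genes of the interferon lists, and differ from the study's. A cluster was called cycling-like if at least 3 cycling markers were more than 2-fold higher than in other cells. Figures were drawn in matplotlib 3.10.9.

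The members, lists and rules were chosen with earlier results of these data known. All 10 members are named. Of the other lists, counts cover genes whose mean reached 1 CPM, and the text names the 3 largest ratios among genes at 5 CPM or more, STAT2, IRF9, UBA7 and UBE2L6, and the 10 genes most correlated with the summed members and found in at least 2% of thinned cells. One other gene of this rule is not reported here. PTPRC, DCN, HERC5, HERC6, NMI, IFNLR1, SOCS1, EIF2AK2, SHISA5, the interferon genes and the genes listed for the highest cell were named after their values were seen. So were TAGLN, ACTA2 and TIMP1. The script was tested on simulated data. With 1 library per group and cells not assigned to mares, no test was made. No sequences or positions were used.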

Additional observations from a re-analysis of the deposited data

How the results depend on the processing

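The same 4 mares are in both pools, but cells were not assigned to mares here, so no test was made, and what differs between mares, cultures or library preparations is not in any interval. No paired analysis was possible because the assignment of cells to mares needs the reads, which were not analysed here. Depth limited MX2 and IFIT3, with 24 and 281 UMIs over both libraries. Each gene's log2 ratio was recomputed under 11 other settings (other cell filters, scalings, cluster weights, and cells left out). None of the 110 values changed direction, and all lay within the gene's counting interval except that of ISG15 at -0.69 without the 10 highest cells of each library, a setting added after seeing the data, as were the settings without KRT8-carrying cells or the cycling-like cluster. The median of -1.11 became -1.51 when all 10 genes were included, and 4 genes lower by more than 2-fold became 6 with that choice or with a 1.5-fold limit. It kept within its interval otherwise. The median-of-ratios size factor added 0.023 to every log2 ratio. The share of cells with at least 3 genes moved with depth by construction: it was 3.39% in the control and 0.864% in the TGF-β1 library after thinning to 10000 UMIs, and 48.8% and 19.2% without thinning. For at least 2 genes it was 37.6% and 20.03%, and for at least 5 it was 0.621% and 0.0443%. The control was higher in each case. Pair medians ranged within their intervals. At resolution 0.3, 100% of 44 cluster ratios had the direction of the whole library, and at 0.8, 89 of 91 did. Promoter motifs were planned and not run.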
